A study of Caenorhabditis elegans with 2 samples.

Results

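The regions described here lie in introns. The deposited joint list of NHR-12 ChIP-seq regions, called on both replicates together, held 3817 regions, and 904 of them were autosomal and intronic. By its deposited name the list holds background as well as peaks, so a listed region is not by itself a site of NHR-12 binding. The highest −log10 q-value in it was 1.08. A region counted as intronic when its midpoint lay inside a protein-coding gene, in no annotated exon of any gene, and outside the promoter windows. Those windows covered each protein-coding gene's 5′ end in Ensembl release 115, with 500 bp of upstream and 200 bp of downstream sequence. A pair of piRNA-rich stretches of chromosome IV, 4.5 to 7.0 Mb and 13.5 to 17.2 Mb, was left out. The choice used position alone and no signal, and all 904 regions were 376 bp wide. The rest of the joint list comprised 710 autosomal promoter regions, 463 exonic regions, 719 regions outside protein-coding genes, 299 regions in the left-out stretches, 703 on the X chromosome and 19 mitochondrial regions. The study had 1 group of 2 biological replicates and 1 control file, so no comparison between conditions was possible. The animals were Caenorhabditis elegans at the first larval stage (L1), whole, pooled males and females of strain OP318 (unc-119(ed3) III; wgIs318). They carried an integrated transgene for NHR-12 fused at its C terminus to GFP and FLAG, in an unc-119 mutant background, and both replicates came from that strain. The antibody was labelled nhr-12 and chromatin was fragmented by sonication. Whole larvae mix all tissues, so a region cannot be assigned to a cell type. Region lists hold no read counts, so the depth of each replicate is unknown.

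NHR-12 belongs to the nuclear hormone receptors, transcription factors that bind DNA through zinc fingers and, in many members, respond to small lipophilic ligands. The family is greatly expanded in nematodes. Introns of C. elegans can carry enhancers, start sites of shorter transcripts of the host gene, and small noncoding RNA genes with promoters of their own.

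Sequences of the strongest intronic regions are given first, because GC content and a pair of short patterns recur in them. They are the windows of 100 bp on each side of the midpoint for 9 of the 10 strongest intronic regions of the authors' set that passed the irreproducible discovery rate (IDR), among those on chromosomes III, IV and V. The sequence is that of the RefSeq genome, build WBcel235 (ce11), plus strand, 5′ to 3′. In the dhc-4 and pxn-1 windows capitals mark the bases of an annotated small RNA gene, the snRNA gene R07E5.16 and the snoRNA gene ZK994.7. In the other windows capitals mark GAGAGA and CTGCGTCT, searched on both strands.
dhc-4, chrIII:10989722-10989922: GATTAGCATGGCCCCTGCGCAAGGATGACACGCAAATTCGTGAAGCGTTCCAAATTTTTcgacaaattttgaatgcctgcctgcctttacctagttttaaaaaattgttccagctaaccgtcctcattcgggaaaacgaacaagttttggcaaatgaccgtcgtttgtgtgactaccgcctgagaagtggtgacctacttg
nhr-87, chrIV:1624567-1624767: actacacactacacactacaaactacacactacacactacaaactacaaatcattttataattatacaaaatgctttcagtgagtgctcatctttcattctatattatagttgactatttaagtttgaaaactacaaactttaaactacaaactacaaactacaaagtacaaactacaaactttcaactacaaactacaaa
zfp-1, chrIII:8802014-8802214: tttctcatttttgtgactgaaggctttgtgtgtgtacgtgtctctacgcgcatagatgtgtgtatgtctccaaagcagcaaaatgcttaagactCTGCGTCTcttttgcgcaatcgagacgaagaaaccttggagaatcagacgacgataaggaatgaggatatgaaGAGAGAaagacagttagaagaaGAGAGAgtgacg
zfp-1, chrIII:8795755-8795955: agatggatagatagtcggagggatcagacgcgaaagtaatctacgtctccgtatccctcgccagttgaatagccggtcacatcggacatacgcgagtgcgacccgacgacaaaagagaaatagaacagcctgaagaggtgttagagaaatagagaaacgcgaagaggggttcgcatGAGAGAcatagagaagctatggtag
pqn-41, chrIII:1921376-1921576: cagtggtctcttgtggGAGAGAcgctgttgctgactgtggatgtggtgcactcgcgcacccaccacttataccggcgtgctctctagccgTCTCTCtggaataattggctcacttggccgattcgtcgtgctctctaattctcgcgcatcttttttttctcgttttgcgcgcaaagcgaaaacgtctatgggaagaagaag
pxn-1, chrV:8500453-8500653: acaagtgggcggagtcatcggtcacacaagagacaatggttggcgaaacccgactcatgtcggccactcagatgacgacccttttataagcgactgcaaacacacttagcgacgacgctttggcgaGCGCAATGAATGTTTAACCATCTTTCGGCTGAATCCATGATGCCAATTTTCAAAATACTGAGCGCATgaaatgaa
epg-9, chrIV:2602057-2602257: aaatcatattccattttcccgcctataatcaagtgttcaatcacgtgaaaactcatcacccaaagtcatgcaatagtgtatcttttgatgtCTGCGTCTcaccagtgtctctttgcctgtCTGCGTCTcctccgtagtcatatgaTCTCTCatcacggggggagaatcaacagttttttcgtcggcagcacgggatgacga
pqn-41, chrIII:1926585-1926785: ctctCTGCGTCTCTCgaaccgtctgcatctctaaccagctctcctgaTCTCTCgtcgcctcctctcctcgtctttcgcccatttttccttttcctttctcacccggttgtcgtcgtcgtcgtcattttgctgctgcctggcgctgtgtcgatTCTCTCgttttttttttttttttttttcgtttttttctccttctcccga
Y111B2A.12, chrIII:12612565-12612765: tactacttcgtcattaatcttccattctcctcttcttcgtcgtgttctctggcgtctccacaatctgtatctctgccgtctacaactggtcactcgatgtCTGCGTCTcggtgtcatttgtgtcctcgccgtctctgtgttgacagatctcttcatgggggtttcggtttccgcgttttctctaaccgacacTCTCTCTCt

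The zfp-1, pqn-41, epg-9 and Y111B2A.12 windows held GAGAGA, and the epg-9 window held CTGCGTCT at 2 positions. The nhr-87 window had neither pattern. It was made largely of short repeated units and had a GC content of 27.9%.

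The IDR set consisted of the 164 joint regions of highest signal, and it held 19 of the 904 intronic regions. That is 2.10% (exact 95% binomial interval 1.27 to 3.26%), against 4.30% of all joint regions. Among promoter regions 69 of 710 were in the set (9.72%, 7.64 to 12.1%), among exonic regions 5 of 463 (1.08%), and among regions outside protein-coding genes 20 of 719 (2.78%). By density, intronic regions stood at 3.70 per 100 kb of the 24.4 Mb of sequence that met the rule. Promoter windows held 6.68 regions per 100 kb, exons 2.04, and sequence outside protein-coding genes 3.85. The intronic signal, a score of the peak caller with no stated scale, ran from 17.2 to 111, with quartiles of 18.1, 19.4 and 21.6. The median in promoter windows was 21.0. Intervals cover counting error only, and since regions are not replicates these differences between classes were not tested.

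The strongest intronic region, with a joint signal of 111, lay within ints-8, in its first intron (chromosome I, 13463725 to 13464100). The gene encodes a subunit of Integrator, which processes small nuclear RNAs, and the midpoint was 42 bp from rpr-1, the RNA component of RNase P. Ranks are those of the region that a replicate's own list had within 100 bp. This one ranked 28 in replicate 1 and 4 in replicate 2, so both replicates placed it near the top of their lists. The dhc-4 region, in an intron of a dynein heavy chain gene on chromosome III (10989634 to 10990009), had a joint signal of 61.8. It ranked 34 in replicate 1 and 147 in replicate 2, with its midpoint 42 bp from R07E5.16. The nhr-87 region on chromosome IV (1624479 to 1624854) had a joint signal of 56.1 and ranked 33 and 239 in replicates 1 and 2. Its host is itself a nuclear hormone receptor gene, and its window was the lowest in GC of the 19 in the IDR set.

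Some other hosts of IDR regions encode regulators of transcription and chromatin, a grouping that was not set against all genes. The daf-16 region (chromosome I, 10769797 to 10770172), in the gene of the FOXO factor of insulin signalling, had a signal of 51.8 and ranked 207 in replicate 1 and 67 in replicate 2. Its midpoint was 1523 bp upstream of the start of a shorter daf-16 transcript. The gene zfp-1, which encodes a chromatin-associated zinc finger protein related to mammalian AF10, held a pair of IDR regions with signals of 51.4 and 47.4. The first ranked 52 in replicate 1 and 95 in replicate 2, high in both. The other ranked 22816 and 42, so it was near the bottom of one list and near the top of the other. The same split was seen at let-526, which encodes an ARID subunit of SWI/SNF chromatin remodelling complexes: with a signal of 37.1 it ranked 16786 in replicate 1 and 82 in replicate 2. At drap-1, which encodes a relative of the corepressor subunit DRAP1, the ranks were 2018 and 64 at a signal of 39.1. At crh-1, which encodes the CREB factor, the order was the reverse, with ranks of 157 and 703 at a signal of 37.7.

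The remaining IDR hosts have other roles. The pxn-1 region (chromosome V, 8500365 to 8500740), in a peroxidasin gene, had a signal of 47.0, was ranked 97 and 84 in replicates 1 and 2, and lay 26 bp from the snoRNA gene ZK994.7. The epg-9 region (chromosome IV, 2601969 to 2602344), in an autophagy gene, had a signal of 45.8 and ranks of 106 and 156. These regions were high in both replicates. The W06H8.6 region had a signal of 38.2 and ranked 358 and 195. The Y111B2A.12 region had a signal of 41.2 and ranked 5208 in replicate 1 and 70 in replicate 2. The let-526 region, at 37.1, was the weakest intronic region inside the IDR set, and dcp-66, which encodes a component of the NuRD chromatin complex, was the strongest outside it at 36.3, with ranks of 98 and 2282. Below it came the overlapping genes cdk-5 and kel-3 (36.2), tns-1 (35.9), lin-24 (35.9), zip-2 (35.2) and C33A12.3 (35). Each of these 6 regions, dcp-66 included, ranked higher in replicate 1 or was listed there alone.

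Several IDR regions shared a gene. In pqn-41, which encodes a glutamine-rich protein with prion-like domains, 4 regions stood in 1 intron of 7776 bp on chromosome III, with joint signals of 47.3, 30.1, 38 and 44.1 in order along the gene, and 3 of them were in the IDR set. They ranked 58, 125, 81 and 72 in replicate 2. In replicate 1 the first was not listed and the others ranked 4205, 2824 and 1888, so the cluster was strong in replicate 2 and not in replicate 1. The other pqn-41 region, in a later intron, had a signal of 18.1. In hmr-1, the classical cadherin gene, 13 regions were spread over 47778 bp of intron (0.272 per kb), the most of any host. The 2 in the IDR set had signals of 42.6 (ranks 83 and 120) and 38.6 (ranks 107 and 659), and the other 11 lay between 17.5 and 23.6. The strongest hmr-1 region was in the first intron of the longest transcript, 3148 bp from its start. In zfp-1 the region of signal 51.4 lay 705 bp upstream of the start of a shorter transcript and overlapped a region of signal 25.8, so these share bases.

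**Figure D1:**
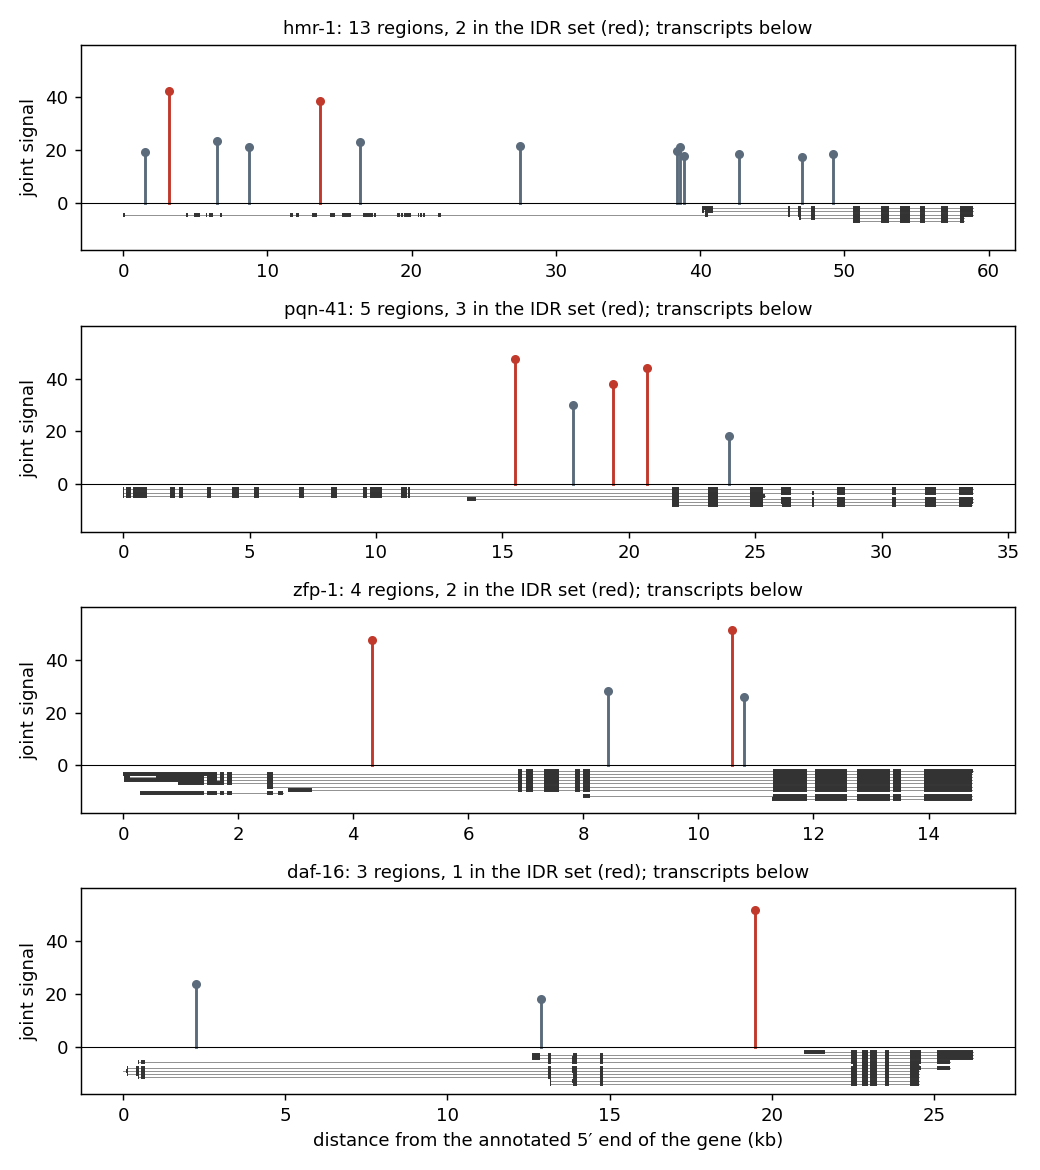
Joint signal (vertical axis, peak caller's score) of the intronic regions of hmr-1, pqn-41, zfp-1 and daf-16 against distance from the annotated 5′ end of the gene in kb. Stems are single regions, red where in the IDR set, and the bars below are the exons of each annotated transcript; at pqn-41, 4 of the 5 stems stand over 1 intron.

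Most host genes held a single region. The 904 regions fell in 751 of the 15174 autosomal protein-coding genes that had any sequence meeting the rule (4.95%), with 634 hosts holding 1 region, 86 holding 2 and 31 holding 3 or more. The hosts were genes with much intron: a median of 3875 bp met the rule in them, against 679 bp over all 15174 genes. Only 25 regions (2.77%) overlapped another intronic region, and the median distance to the nearest other joint region of any class was 6652 bp. For the 19 regions in the IDR set it was 2667 bp. Genes with 3 or more regions included ndx-8 (a Nudix hydrolase gene, 5 regions, strongest 32.8), gcy-28 (a receptor guanylyl cyclase gene, 5, 23.1), dmsr-6 (a neuropeptide receptor gene, 5, 21.4) and afd-1 (the afadin gene, 5, 20.3). Genes with 4 regions were zfp-1, hlh-30 (the TFEB factor, strongest 29.5), rbc-2 (28.5), gcn-1 (23.7), grdn-1 (23.2), aakg-1 (an AMP-activated kinase subunit, 22.7) and kin-1 (the catalytic subunit of protein kinase A, 22.5). Of these 11 genes, zfp-1 alone had a region in the IDR set.

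By gene group, the regions were not limited to one kind of host. Of 242 nuclear hormone receptor genes with sequence that met the rule, 9 (3.72%) held a region, close to the 4.95% of all genes; after nhr-87 the strongest were nhr-41 (23), nhr-274 (21.8) and nhr-231 (21.5). The homeobox list held regions in 8 of 68 genes (11.8%), led by egl-5 (26.2), unc-42 (23.5), ttx-1 (22.1) and lin-39 (20.1). The lists were made by gene symbol, so a listed gene need not belong to its group. The gene lim-9 (18.3), in the homeobox list by its symbol alone, also stood in the muscle structure list. Cell adhesion and axon guidance genes held 24 regions in 7 of 46 genes (15.2%), 13 of them in hmr-1, followed by unc-52 (22.8), cdh-8 (21.6) and mig-10 (21.5). The voltage-gated and potassium channel list, which need not hold channels alone, held regions in 9 of 55 genes (16.4%), led by twk-5 (34.7) and unc-93 (27.7). Small GTPase and G protein genes held regions in 13 of 94 (13.8%), led by tag-10 (28.7) and gpa-1 (25.7), although tag symbols are provisional names and need not belong there. Per 100 kb of sequence that met the rule the values were closer to the 3.70 of all genes. They were 3.12 for nuclear hormone receptors, 4.37 for the homeobox list, 2.84 for the channel list, 5.93 for adhesion genes and 5.07 for GTPase genes.

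The remaining groups ranged widely in density. Neurotransmitter and neuropeptide receptor genes held 14 regions in 7 of 72 genes (5.02 per 100 kb), led by npr-37 (22.2), dmsr-6 (21.4), trhr-1 (21.3) and dmsr-8 (20.2). Ligand-gated channel genes held 5 in 5 of 73 (2.32 per 100 kb), with acr-20 highest (19.3). Muscle structure genes held 6 in 4 of 34 (2.50 per 100 kb), with unc-89, the obscurin gene, highest (21.6). The bHLH factors had the highest density of the 17 lists, 10.1 per 100 kb, from 6 regions in 0.0591 Mb. The 6 were in 3 of 27 genes, with 4 in hlh-30 and the others in hlh-11 (18.2) and hif-1 (17.7). Chemoreceptor genes, with 1180 genes, held 21 regions (2.56 per 100 kb), the strongest in sri-18 (24.6), and C-type lectin and F-box genes held 8 in 537 genes (1.95 per 100 kb), the strongest in clec-264 (25.9). The collagen list held 4 regions in 3 hosts (6.20 per 100 kb), and its strongest, rol-3 (33.0), encodes a receptor tyrosine kinase and no collagen; the others were col-153 (22.1) and col-99 (19.5). Detoxification enzymes had 4 regions in 4 of 163 genes (2.86 per 100 kb), lipid metabolism genes 3 in 3 of 96, and Wnt and Notch genes 4 in 3 of 38, led by dsh-1 (23.5). Cytosolic ribosomal protein genes, whose introns offered 0.00801 Mb in all, had 0. The Integrator and snRNA transcription list had the ints-8 region alone, in 1 of 28 genes. The gene unc-119, mutated in the strain, held 1 region in its first intron with a signal of 17.9, ranked 2562 in replicate 1 and not listed within 100 bp in replicate 2.

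Within their introns the regions lay at all positions, with a median of 50.4% of the way through the intron (quartiles 23.7 and 72.9%). The median host intron was 975 bp long (quartiles 543 and 2647.5 bp), against 928 bp (429 and 2186 bp) over all bases that met the rule. Introns of 5000 bp or more held 14.7% of the regions and 11.1% of the bases. First introns of a transcript held 327 regions (36.2%) and 30.6% of the bases. Of the 226 regions of highest signal, 95 were in first introns and 19.6% in introns of 5000 bp or more, against 74 and 11.5% of the 226 of lowest signal. Of the 19 in the IDR set, 10 were in first introns and the median host intron was 1824 bp. The share in first introns was 40.4% among the strongest regions of replicate 2 alone and 32.2% among those of replicate 1 alone, so the replicates did not give the same value.

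**Figure D2:**
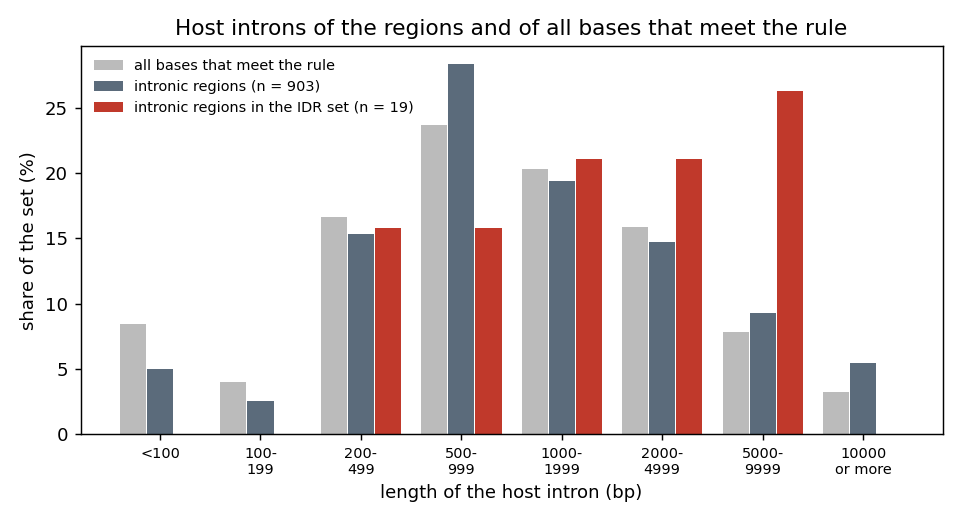
Share (%) of bases that met the rule, of intronic regions and of intronic regions in the IDR set by length of the host intron in bp. The 903 regions with a protein-coding intron have a larger share than the bases in introns from 500 to under 1000 bp (28.3 against 23.7%) and of 5000 bp or more, and a smaller share in introns under 200 bp.

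Few of the regions lay near annotated starts of shorter transcripts. The promoter windows above used 1 start per gene. When the same window was placed at every annotated transcript start, 78 of the 904 regions (8.63%) fell in one, against 6.54% of the bases that met the rule. With 250 bp of upstream sequence, a setting chosen after seeing the data, the order turned, with 3.65% of the regions against 3.86% of the bases. Among the 226 of highest signal the share in the wider window was 13.7%. Of the 19 in the IDR set, drap-1 was the 1 in such a window, 49 bp upstream of a transcript start.

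Annotated noncoding RNA genes were near a minority of the regions, and near 8 of the 19 in the IDR set, 6 of these 8 by a gene of the broad ncRNA class. The midpoint was within 200 bp of an annotated noncoding RNA gene at 59 regions (6.53%, 5.01 to 8.34%), against 2.91% of the bases that met the rule, and 8 of these 59 were in the IDR set (13.6%) against 11 of the other 845 (1.30%). Genes of snRNAs, snoRNAs, tRNAs or miRNAs were near 23 regions, 2 of them in the IDR set. Kinds are those of the annotation and need not give the function of each gene. Genes annotated as snoRNA, a class that guides modification of other RNAs, were near 12 regions (1.33% against 0.148% of bases). Genes of snRNAs, parts of the splicing machinery, were near 4 (0.442% against 0.0591%), and tRNA genes near 6 (0.664% against 0.144%). Genes of the broad ncRNA class were near 42 (4.65% against 2.13%), and piRNA genes near 2 (0.221% against 0.388%). Beside rpr-1, R07E5.16 and ZK994.7, the IDR regions of daf-16, drap-1, W06H8.6 and both of hmr-1 lay near ncRNA genes. Below the IDR set, hosts near genes annotated as snoRNA included zip-2 (35.2), C33A12.3 (35, near smy-2), twk-5 (34.7) and rol-3 (33.0). The 59 regions had a median GC content of 40.3%, against 31.3% for the other 845, and the part that base composition plays in their signal was not tested.

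The IDR regions were richer in GC than most intronic regions. In the windows of 100 bp on each side of the midpoint, the 904 regions had a median GC content of 31.8%, against 33.3% for windows placed every 1000 bp over all sequence that met the rule. The 19 in the IDR set had a median of 48.8%. A GC content of 40% or more was found in 15 of these 19 (78.9%), in 144 of all 904 regions (15.9%) and in 19.4% of the windows over the rule's sequence. Read the other way, 14 of the 67 regions with 45% GC or more were in the IDR set (20.9%, 11.9 to 32.6%), against 1 of 77 at 40 to 45% and 4 of 760 (0.526%) below 40%. The IDR regions below 40% included those of nhr-87 (27.9%), hmr-1 (29.9%) and crh-1 (31.3%). Outside introns the same split at 40% gave 20.3 against 4.92% in the IDR set for promoter regions, 12.3 against 0.838% outside protein-coding genes and 3.05 against 0.301% in exons.

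**Figure D3:**
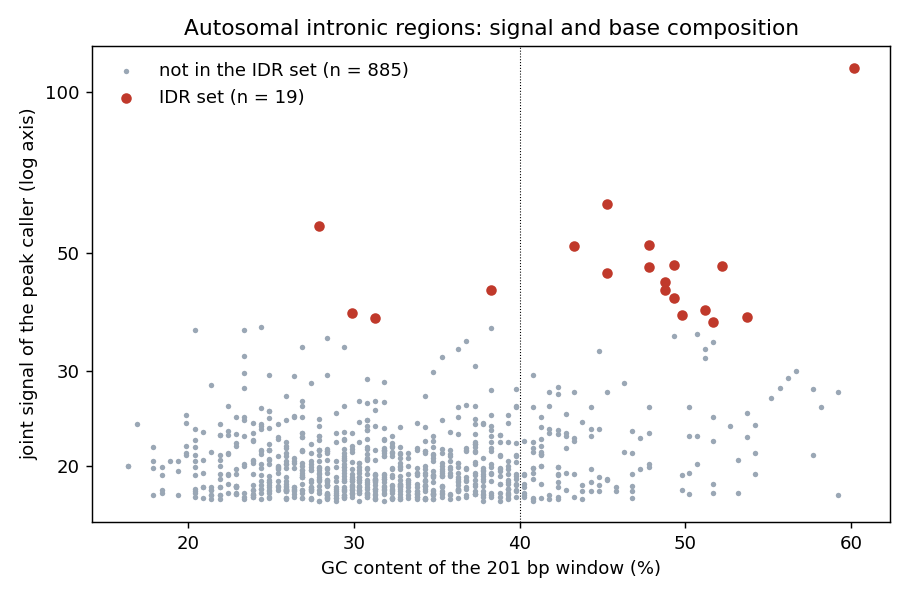
Joint signal (log axis, peak caller's score) of each of the 904 intronic regions against the GC content (%) of its window (100 bp on each side of the midpoint), with the 19 regions of the IDR set in red. Most red points lie right of the dotted line at 40%, and many GC-rich regions have low signal.

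**Figure D4:**
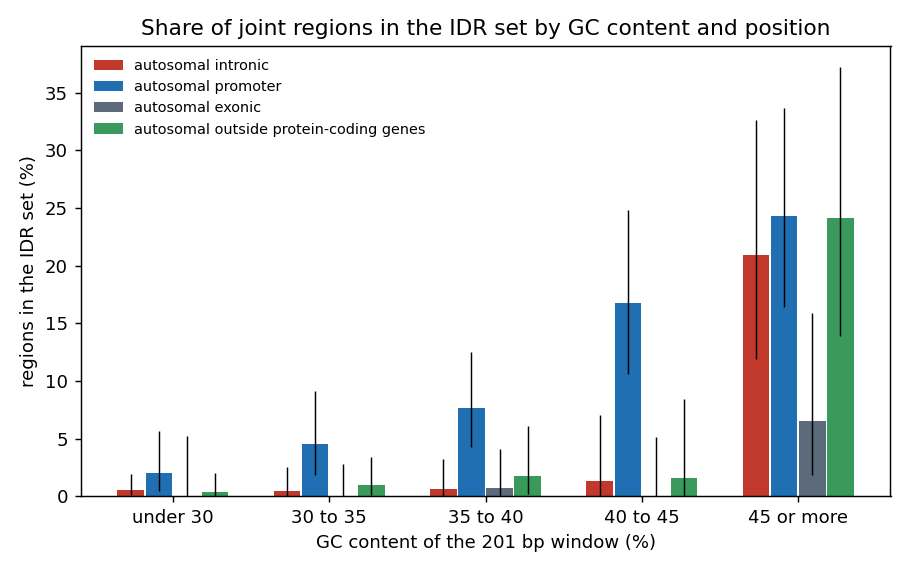
Share (%) of joint regions in the IDR set by GC content (%) of the window around the midpoint for 4 autosomal position classes, with exact 95% binomial intervals (counting error only). In introns the share is 20.9% in the top bin and at most 1.30% in the others, while in promoter windows it is higher in each bin than in the one before.

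The replicates differed in how they ranked GC-rich regions, in introns and in the other autosomal classes. Replicate 1 listed a region within 100 bp of 681 intronic regions (75.3%, against 75.0% of all joint regions) and replicate 2 of 635 (70.2%, against 72.1%). Both listed 447 (49.4%, against 50.1%). Among the 67 regions with 45% GC or more, replicate 2 listed 88.1% with a median rank of 437, and replicate 1 listed 58.2% with a median rank of 3042. Below 40% GC, replicate 2 listed 67.9% with a median rank of 6166.5 and replicate 1 listed 77.0% with a median rank of 3992. At 40% GC or more, median ranks in replicates 1 and 2 were 3934.5 and 1708 for introns. They were 1916.5 and 647 for promoter regions, 5493 and 2393 for exonic regions, and 4062 and 2554 outside protein-coding genes. The better standing of GC-rich regions in replicate 2 was thus not particular to introns. The 100 strongest intronic regions of each replicate's own list differed too: 44 of replicate 2 and 19 of replicate 1 had 40% GC or more. A description by Spearman's rho over the listed regions gave 0.201 between GC content and standing in replicate 2 (n = 635) and -0.0634 in replicate 1 (n = 681). The IDR regions of pqn-41, drap-1, Y111B2A.12 and let-526 followed this order, as did the zfp-1 region of signal 47.4 (49.3% GC). They had ranks of 42 to 82 in replicate 2 and of 1888 or lower standing, or no listing, in replicate 1. Other GC-rich IDR regions were high in both replicates, among them ints-8 (60.2% GC), dhc-4 (45.3%), pxn-1 (47.8%), epg-9 (45.3%), daf-16 (47.8%) and the stronger one of hmr-1 (48.8%).

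Across the 447 intronic regions that both replicates listed, the log2 signals of the replicates showed a Pearson correlation of 0.00788 and a Spearman correlation of -0.222. All these regions had passed the same cutoff on joint signal, which both replicates feed, so the points share that selection and no test was made. In promoter windows the same values were 0.463 and 0.308 (n = 401). In exons they were 0.06 and -0.176 (n = 235), and outside protein-coding genes 0.152 and -0.14 (n = 364). On the X chromosome they were 0.466 and 0.0175 (n = 335). Low or negative values were thus not particular to introns. With each rank divided by the length of its replicate's list, replicate 1 gave the better standing to 225 of the 447 regions and replicate 2 to 222.

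**Figure D5:**
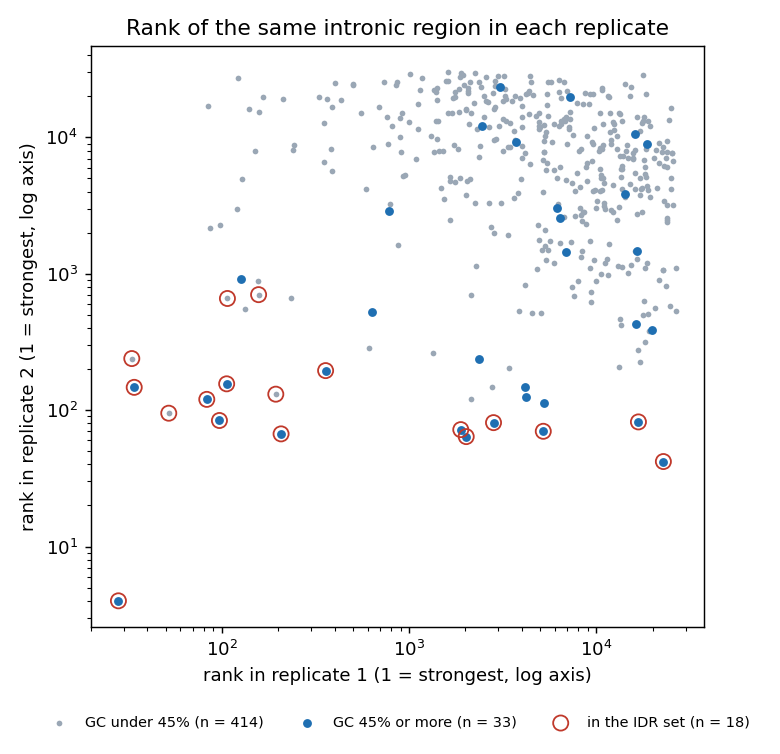
Rank in replicate 1 against rank in replicate 2 (log axes, 1 is strongest) for the 447 intronic regions listed in both, with 45% GC or more in blue and the IDR set circled. Some circled points are high in both replicates and others in replicate 2 alone, and blue points occur among each.

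The 20 short patterns were chosen with earlier results of these data known, so their shares are a description. They were searched in the same windows on both strands. Of the 20, GAGAGA and CTGCGTCT had the largest differences in percentage points between the IDR regions and all 904. GAGAGA was present in 13 of the 19 IDR windows (68.4%, 43.4 to 87.4%), in 12.7% of all 904 windows and in 8.30% of the windows over the rule's sequence. CTGCGTCT was present in 6 of 19 (31.6%, 12.6 to 56.6%), in 3.10% of the 904 and in 1.29% of the rule's windows. All 6 of these IDR windows also held GAGAGA. In the next 19 regions by signal after the IDR set, GAGAGA was in 3 (15.8%) and CTGCGTCT in 2 (10.5%). Several IDR windows share a host gene, which the intervals do not take into account. Both patterns have more G and C than these introns. Among windows of 40% GC or more, GAGAGA was in 40.3% of the 144 intronic regions and in 13.6% of the rule's windows, and CTGCGTCT in 13.9 and 3.98%. The IDR regions outside protein-coding genes held GAGAGA in 12 of 20, and those of promoters in 25 of 69 (36.2%). TGTGTG was in 6 of the 19 IDR windows and 10.4% of the 904, against 7.73% of the rule's windows. GAGAGA was also in 28 of the 100 strongest intronic regions of replicate 2 and in 21 of the 100 strongest of replicate 1.

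Sequences to which nuclear receptors are known to bind were about as frequent in the intronic regions as in introns at large. The hormone response element core AGGTCA was in 40 of the 904 windows (4.42%), in 1 of the 19 IDR windows and in 4.48% of the rule's windows. Its extended form AAGGTCA was in 1.11% against 1.23%, and the related AGTTCA in 10.3% against 11.1%. The pattern TGATAA, bound by the intestinal factor ELT-2, was in 16.5% against 16.1% and in 0 of 19. These letters in a window are a description and not a site, and nothing about the factor is drawn from them. Windows with 50% or more of their 36-base words repeated in the genome made up 0.111% of the intronic regions and 7.88% of the rule's windows, so windows of such exact repeats were rare in the list. By the genome's soft masking, in contrast, the median masked share of a window was 49.5% for the regions and 46.8% for the rule's windows. How reads with several matches were treated is not given in the sources used here.

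Chromosomes differed modestly. Chromosome I held 244 of the regions (4.28 per 100 kb), IV 138 (3.75), V 184 (3.28) and II 137 (3.10), and chromosome III held 22.2% of them (4.01). The IDR regions numbered 5 on chromosome I, 2 on IV, 3 on V and 0 on II, so chromosome III held 9 of the 19, 5 of them in pqn-41 and zfp-1.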

How the data were processed

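ChIP-seq regions of tagged NHR-12 in L1 larvae were taken from the lists the authors deposited on the ce11 build; the ce10 lists were not used here. Each region carries a signal, a score of the authors' peak caller, and a −log10 q-value, per the deposited columns. The signal was used to rank within 1 list, and of the −log10 q-value only its maximum is given. Aligner, caller and versions are not given in the sources used here. The labels call the libraries biological replicates 1 and 2. The lists held 26878 and 30000 regions.

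Midpoints were placed on Ensembl release 115 and RefSeq WBcel235 with Python 3.11.15, numpy 2.4.6, pandas 2.3.3 and scipy 1.17.1, and figures drawn with matplotlib 3.10.9. A region was listed in a replicate when a midpoint lay within 100 bp. The position classes were checked on random points of chromosome II, and the matching within 100 bp on planted points. Regions are not replicates and there was 1 group, so no test was made. Named genes are hosts of the IDR regions, of the 25 strongest, of 3 or more regions, and up to 4 per list, plus nhr-12 and unc-119 where they hold a region. Members, lists and patterns were chosen with earlier results of these data known. Alternatives changed the promoter window, exons, chromosome IV stretches, signal cutoff, replicates and matching distance. One of the strongest windows is not reported here.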

Additional observations from a re-analysis of the deposited data

How the results depend on the processing

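The number of intronic regions stayed between 826 and 980 when transcript-level starts, promoter windows of 250 or 1000 bp, protein-coding exons alone or the chromosome IV stretches were changed, and it was 414 when the joint list was kept down to its median signal. Those had 4.59% in the IDR set, 80.4% with a replicate 1 region, 79.2% with a replicate 2 region and a median signal of 22. With every transcript start the share in first introns was 32.4%. In either replicate's list alone, cut to the length of the joint list, the share in first introns ranged from 32.2 to 40.4% and the median host intron from 954 to 1111.5 bp. The share with a replicate 1 region was 61.8% within 50 bp, 86% within 200 bp and 88.6% by overlap of at least 1 bp, and for replicate 2 it was 58.7, 79.6 and 82.2%. Within 500 bp, 93 regions were near a noncoding RNA gene. Added after seeing the data, the share with 40% GC or more was 11.8% in replicate 1 and 20.7% in replicate 2, and 22.2% above the median signal. The share in transcript-start windows was 3.65% with 250 bp upstream, against 3.86% of the bases that met the rule. Of 20 patterns, 15 kept their side of the rule's windows with 50 bp on each side of the midpoint. The cause of these shifts was not tested. No paired analysis was possible because there was 1 group. With unknown depth, an unlisted region is not shown to be unbound.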
